A study of Mus musculus with 4 samples.

Results

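MHC class I peptide loading is described here through 9 genes, B2m, Tap1, Tap2, Tapbp, Erap1, Calr, Canx, Pdia3 and Nlrc5, out of 19938 genes named on the array. All 9 had at least 1 probe set whose annotation names that gene alone, and where a gene had several, the one with the highest mean stands for it. The genes were measured in CCR6+ group 3 innate lymphoid cells (ILC3), lymphocytes without rearranged antigen receptors, which were taken from naive C57BL/6 mice. The cells were sorted from the mesenteric lymph node as CD127+ CD90.2+ CCR6+ ST2-. Biotin-labelled total RNA of 4 samples, numbered 1 to 4, went onto 1 array each. The 4 samples form 1 group with no treatment, allele or time point in the labels, so no difference between conditions was tested. The labels give neither the age of the mice nor whether the samples came from separate animals or pools, so the spread given below may be partly technical.

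Class I molecules carry short peptides from inside the cell to its surface, where CD8 T cells and NK cells read them. Peptides made by the proteasome are pumped into the endoplasmic reticulum (ER) by the transporter TAP, trimmed there, and fitted into the groove of a heavy chain paired with beta-2 microglobulin. The chaperones tapasin, calreticulin and ERp57 hold the empty molecule beside TAP until a peptide fits. Nearly all nucleated cells do this, and lymphocytes carry much class I on their surface.

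Levels are log2 values made with RMA (robust multi-array average), and a gene was called above background when its mean stood high against 1236 receptor genes of smell and taste. The detection p is the share of those receptor genes with a mean at or above the gene's own, with 1 added above and below, one-sided and adjusted by the Benjamini-Hochberg method over all named genes. A gene was called at an adjusted p under 0.05. Each level is read against background and not against another gene's level, because binding differs between probe sets. Medians over lists are given beside that over all named genes as a description only. The receptor genes had a median of 4.25, and the lowest mean called was 6.37. The 4 arrays had medians between 5.99 and 6.03 over all probe sets. The sort gate genes Il7r, Thy1 and Ccr6 were called, at 12.56 ± 0.06, 11.36 ± 0.15 and 10.49 ± 0.09 (SD, n = 4, as for each level with a ± that follows). All 10 ILC3 markers measured were called as well.

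Of the 9 peptide loading genes, 9 were called above background, beside 46.2% of all named genes. A stricter reading asked that a gene exceed, on every array, each of 14 genes typical of liver, muscle, brain, testis and the like (the organ genes), 4 of which were themselves called. All 9 genes met it, beside 25% of all named genes. With limma's test of the mean against the 95th percentile of background, all 9 were called again, beside 53.5% of all named genes. The median of the 9 means was 9.97, against 6.16 over all named genes and 7.73 over the genes called. This median is the level of Nlrc5 on its probe set of highest mean. With the mean over the probe sets of each gene it was 9.17, against 6.14 and 7.71, so the choice of probe set moved it by more than 1.5 times on the linear scale. The adjusted detection p was 0.0108 for B2m, Tapbp, Calr, Canx, Pdia3 and Nlrc5, the lowest that this test gave, and 0.0143 for Tap1, Tap2 and Erap1. In bulk RNA of a sorted population, fewer cells of a type and less RNA per cell cannot be told apart.

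**Figure D1:**
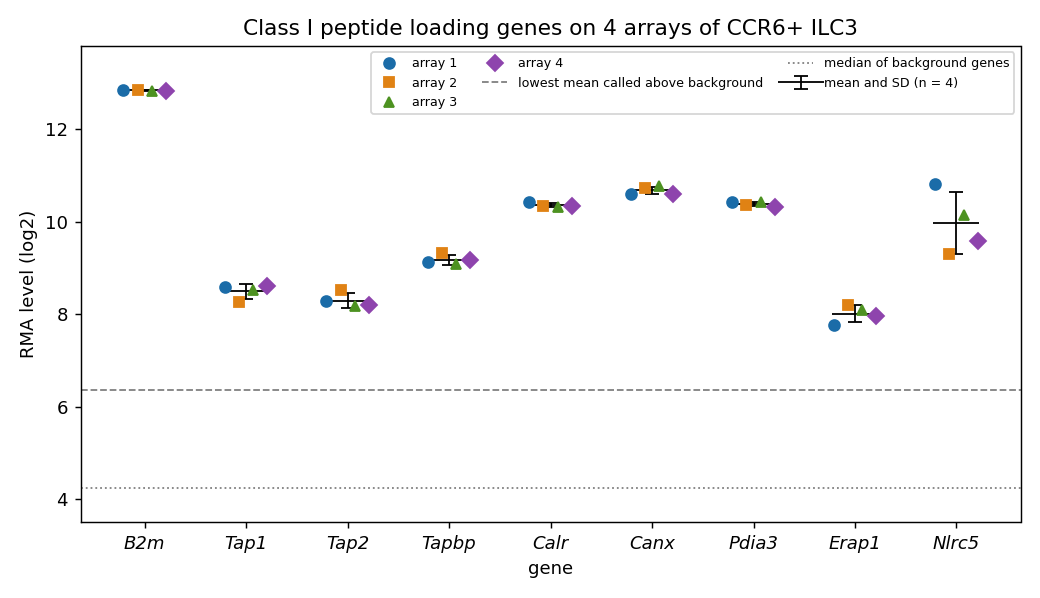
RMA levels (log2) of the 9 class I peptide loading genes on arrays 1 to 4, with the mean and SD (n = 4) in black. All points lie above the lowest mean called (6.37, dashed) and the median of the background genes (4.25, dotted), and Nlrc5 has the widest spread, from 9.31 to 10.82.

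B2m encodes beta-2 microglobulin, the light chain that every classical class I molecule needs to fold. Its level was 12.86, 12.85, 12.84 and 12.82 on arrays 1 to 4, with a mean of 12.84 ± 0.02. The arrays differed by 0.04 log2 units at most, a fold of 1.03, and 1.04% of the genes above background had a smaller SD.

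The promoter of B2m is shown because it holds 4 of the 5 motifs searched, all before the start site. RefSeq promoter windows (GRCm38.p6) run from 250 bases before to 50 bases after the start of a gene, and 7 of the 9 genes matched 1, all but Tap2 and Nlrc5. Position -1 is the last base before the start. Both strands were searched for CCAAT, for TGACG (one side of a cyclic AMP response element, CRE), for GAAANNGAAA (a tandem element read by interferon regulatory factors, IRFs), for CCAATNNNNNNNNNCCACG (the ER stress element, which contains CCAAT) and for the NF-kappaB consensus. The stretch below is chr2:122147538-122147648, plus strand, from -149 to -39, with the matches in capitals.
B2m: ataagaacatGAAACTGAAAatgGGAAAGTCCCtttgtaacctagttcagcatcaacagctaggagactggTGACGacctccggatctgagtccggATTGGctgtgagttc
Read from the left, the capitals are the IRF element at -139 to -130, the NF-kappaB consensus on the minus strand at -126 to -117, TGACG at -78 to -74 and CCAAT on the minus strand at -53 to -49. Another TGACG match lies after the start, at 45 to 49 on the minus strand, and is not shown. Over all 32817 promoter windows, 3.43% held the IRF element, 8.46% the NF-kappaB consensus, 20.8% TGACG and 37.4% CCAAT. A match is a description of the letters and shows no binding in these cells.

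Tap1 and Tap2 encode the chains of the TAP transporter, and both must be present for it to pump peptide. Tap1 was at 8.59, 8.25, 8.53 and 8.60 on arrays 1 to 4, with a mean of 8.49 ± 0.16. Array 2 was the low one, and the other arrays lay within 0.07 log2 units of each other. Tap2 was at 8.28, 8.52, 8.17 and 8.19, with a mean of 8.29 ± 0.16. Here array 2 was the high one. The array with the lowest Tap1 was thus the one with the highest Tap2, and the ranges were 0.35 and 0.36 log2 units, folds of 1.27 and 1.28. Their SDs stood near the median of 0.168 over genes above background, with 47.8% and 48.3% of these genes below them.

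In the RefSeq gene order of chromosome 17, Tap1 lies between the immunoproteasome genes Psmb9 and Psmb8, and Tap2 follows. Psmb9 was at 10.73 ± 0.04 and Psmb8 at 9.79 ± 0.14, and Psmb8 was highest on array 2, at 9.94, as Tap2 was. The promoter of Tap1 is shown because it holds CCAAT and TGACG and neither the IRF element nor the NF-kappaB consensus in the spelling searched, unlike that of B2m. Its stretch is chr17:34187324-34187484, plus strand, from -232 to -72.
Tap1: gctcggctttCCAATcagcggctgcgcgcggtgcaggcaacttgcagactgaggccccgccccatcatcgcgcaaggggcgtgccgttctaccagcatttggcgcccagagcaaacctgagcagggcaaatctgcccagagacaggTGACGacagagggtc
Nothing follows from a missing match about a factor, since other spellings and other places were not searched.

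Tapbp encodes tapasin, which bridges TAP and the empty class I molecule and favours tightly bound peptides. It was at 9.12, 9.32, 9.08 and 9.17 on arrays 1 to 4, with a mean of 9.17 ± 0.11. Array 2 was the highest, as for Tap2, and the range was 0.24 log2 units, a fold of 1.18. Its promoter window held 2 CCAAT matches, both on the minus strand, and none of the other motifs. Tapbpl, its relative TAPBPR, which edits peptides outside the loading complex, was called at 7.90 ± 0.16.

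Erap1 encodes the ER aminopeptidase that trims peptides from their amino end to the length class I binds. It was at 7.77, 8.20, 8.10 and 7.97 on arrays 1 to 4, with a mean of 8.01 ± 0.19. Array 1 was the low one and array 2 the high one, 0.43 log2 units apart, a fold of 1.35. Its SD exceeded that of 56% of genes above background, the highest such share after Nlrc5 among the 9 genes. The promoter is shown because its IRF element lies across the start site, at -4 to 6 on the minus strand, and is its only match. The stretch is chr13:74639839-74639868, plus strand, from -14 to 16.
Erap1: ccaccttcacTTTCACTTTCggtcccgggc
Among the 7 promoter windows, those of B2m and Erap1 held this element.

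Calr, Canx and Pdia3 encode calreticulin, calnexin and ERp57, general ER chaperones that serve many glycoproteins besides class I. Calnexin takes up the new heavy chain, and calreticulin with ERp57, a disulphide isomerase, joins the loading complex. Calr was at 10.42, 10.34, 10.32 and 10.34 on arrays 1 to 4, with a mean of 10.36 ± 0.04, and arrays 2 and 4 were equal to every digit deposited. Canx was at 10.60, 10.73, 10.76 and 10.61, with a mean of 10.67 ± 0.08. Pdia3 was at 10.42, 10.36, 10.42 and 10.32, with a mean of 10.38 ± 0.05. The largest gap between arrays was 0.16 log2 units for Canx, 0.10 for Pdia3 and 0.09 for Calr, folds of 1.12, 1.07 and 1.07. Of genes above background, 18.2% had a smaller SD than Canx, 6.63% than Pdia3 and 5.47% than Calr. Equal values can arise from the median polish step of RMA, and 10.9% of genes above background had at least 1 such tie, so a small SD can be too small.

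The promoters of Calr and Canx are shown because each held the ER stress element, which 0.119% of all 32817 windows held. That of Calr lies at -162 to -144 on the minus strand, and that of Canx at -145 to -127. The stretches are chr8:84847048-84847121, minus strand, from -190 to -117 for Calr, and chr11:50325693-50325887, minus strand, from -214 to -20 for Canx. Each is written in the direction of the gene.
Calr: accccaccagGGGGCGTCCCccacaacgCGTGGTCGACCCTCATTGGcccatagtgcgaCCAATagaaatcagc
Canx: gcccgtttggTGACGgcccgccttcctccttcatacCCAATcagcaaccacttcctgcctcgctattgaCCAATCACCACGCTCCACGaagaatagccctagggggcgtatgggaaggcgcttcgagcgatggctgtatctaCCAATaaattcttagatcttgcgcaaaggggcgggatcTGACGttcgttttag
In the Calr stretch the first capitals are an NF-kappaB consensus, the next are the ER stress element and the last are CCAAT. In the Canx stretch the long capitals are the ER stress element, and the short ones are TGACG or CCAAT. Pdia3 held CCAAT and TGACG but no ER stress element in that spelling. Among 17 genes of ER folding with a promoter window, Hsp90b1, Hspa5, Pdia6 and Syvn1 held it.

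**Figure D2:**
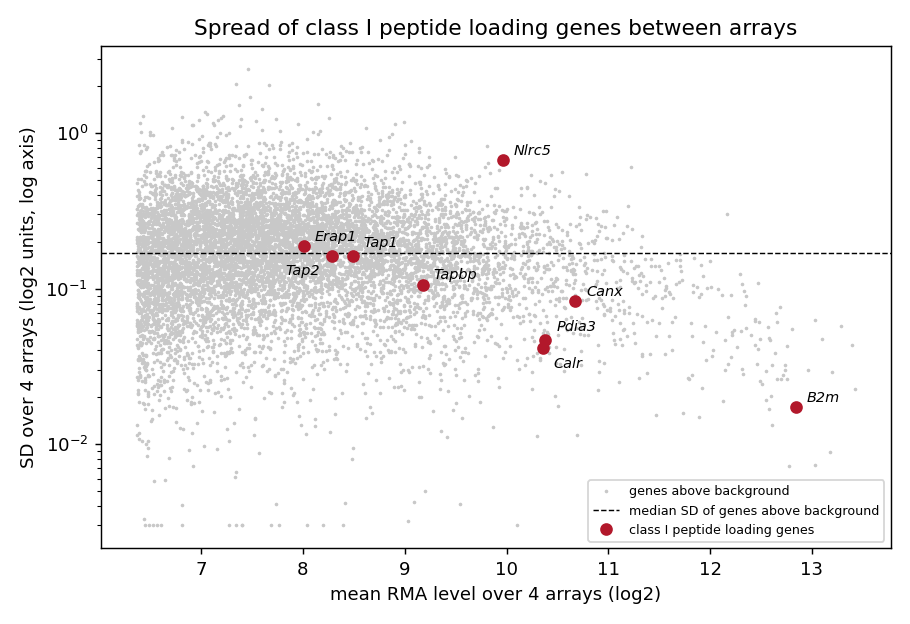
SD over the 4 arrays (log2 units, log axis) against the mean RMA level (log2) for genes above background (grey) and the 9 class I peptide loading genes (red). SDs under 0.003 are drawn at 0.003. Erap1 and Nlrc5 lie above the median SD of 0.168 (dashed), and B2m lies lowest of the 9, at 0.02.

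Nlrc5 encodes the transactivator that drives class I genes, B2m, Tap1 and the immunoproteasome genes, the class I counterpart of Ciita. On its probe set of highest mean it was at 10.82, 9.31, 10.15 and 9.59 on arrays 1 to 4, with a mean of 9.97 ± 0.67. Array 1 was 1.51 log2 units above array 2, a fold of 2.85, and 98.2% of genes above background had a smaller SD. The other 8 genes had SDs of 0.187 or less on the same arrays.

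Other Nlrc5 probe sets ordered the arrays differently. The platform carries 19 probe sets named for Nlrc5 alone, and 10 genes have that many or more. All 19 had means above 6.37, from 6.65 to 9.97 with a median of 7.96, and 10 of the 19 met the stricter reading. Their SDs ran from 0.065 to 0.70 with a median of 0.316. Array 1 was the highest in 7 probe sets, array 2 in 9, array 4 in 3 and array 3 in 0. Array 3 was the lowest in 8, array 4 in 6, array 1 in 3 and array 2 in 2. The probe set of highest mean was thus high on array 1 and low on array 2, while the most frequent order put array 2 highest. Averaged over the 19 probe sets, Nlrc5 was at 8.29, 8.24, 7.92 and 8.04 on arrays 1 to 4, with a mean of 8.12 ± 0.17, and it was still called. The array with the highest average was array 1 and that with the lowest was array 3, 0.37 log2 units below.

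**Figure D3:**
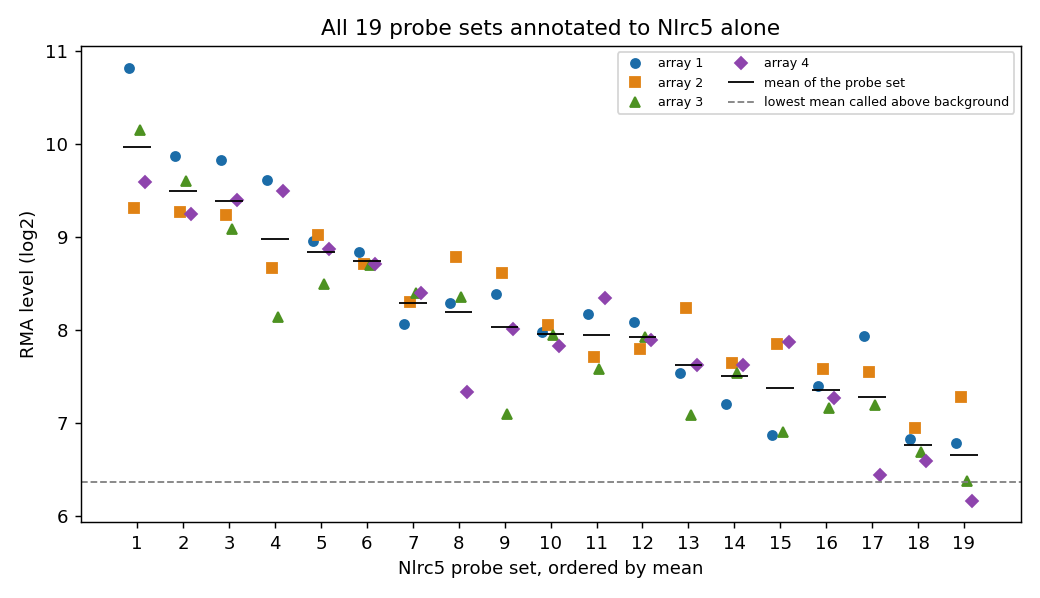
RMA levels (log2) of the 19 probe sets annotated to Nlrc5 alone, ordered by mean (black bars), with 1 point for each array. The means run from 9.97 to 6.65, all above the lowest mean called for a gene (6.37, dashed), and the order of the arrays changes from one probe set to the next.

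Markers of B cells, which carry class I and class II, varied between these arrays. Of 11 B cell markers measured, 10 were called, or 90.9% beside 46.2% of all named genes, and Fcrla was not. The same 10 met the stricter reading. The mean over the list was 8.67, 7.86, 8.83 and 7.86 on arrays 1 to 4. Of these 11 markers, 8 were higher on arrays 1 and 3 than on arrays 2 and 4, and Blk, Pou2af1 and Vpreb3 were not. The Nlrc5 probe set of highest mean also had that order. Of the 9 genes, 2 had it, Nlrc5 and Pdia3, beside 16.4% of all genes above background. Of the 19 Nlrc5 probe sets, 3 had it and 16 did not. T cell markers were called in 11 of 13 cases, or 84.6% beside 46.2% of all named genes, and Themis and Trat1 were not. The stricter reading was met by 5, or 38.5% beside 25%. Their list means were 7.44, 7.41, 7.69 and 7.42. The T cell list means also had that order, as did 5 of the 13 markers. NK and ILC1 markers were called in 7 of 11 cases, or 63.6% beside 46.2% of all named genes, with list means of 6.66 to 7.20. The stricter reading was met by 3, or 27.3% beside 25%, a share near that of all named genes. Of 10 dendritic cell markers 5 were called, a share near the 46.2% of all named genes, with list means of 6.03 to 6.37. Flt3, Xcr1, Clec9a, Itgax and Siglech were not called. Those called were Batf3 at 8.94, Zbtb46 at 6.47, Fscn1, Ccl17 and Ccl22. Fscn1 ran from 6.66 to 8.16 over the arrays, Ccl17 from 6.65 to 7.78 and Ccl22 from 5.76 to 7.20, each highest on array 3. Of 9 monocyte and macrophage markers 2 were called, Lyz2 and Cd68, or 22.2% beside 46.2% of all named genes. Csf1r, Adgre1, Fcgr1, Mrc1 and the 3 C1q genes were not called. Their list means, 6.14, 6.04, 6.15 and 5.77, had that order too, as did 2 of the 9, Lyz2, a called marker at 9.11, 7.76, 8.51 and 7.50, and C1qb. Of 8 stroma and endothelium markers 4 were called, again a share near that of all named genes, with list means of 6.39 to 6.44. These 4 were Pecam1, Col1a1, Col1a2 and Ccl19. Of 9 housekeeping genes 9 were called, beside 46.2% of all named genes. Of these, 4 were higher on arrays 1 and 3 than on arrays 2 and 4. The housekeeping list means, 10.761, 10.756, 10.842 and 10.744, had that order too. The sort gate list means, 11.52, 11.40, 11.49 and 11.47, had it as well, but 0 of its 3 genes did. The list means of class I regulators, 8.282, 8.247, 8.255 and 8.137, and of paralogs, 7.35, 7.25, 7.34 and 7.20, had that order too. Both of these lists hold Ciita, which was at 8.34, 8.06, 8.09 and 7.48. The order takes no account of how far apart the arrays lay, and its source was not tested. The part of RNA of these other cells in the levels of the loading genes was not tested.

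Genes that feed peptides to TAP were called in 12 of 13 cases, or 92.3% beside 46.2% of all named genes. The stricter reading was met by 11, or 84.6% beside 25%. The list median was 8.89, against 6.16 over all named genes. The immunoproteasome subunits, which interferon induces and lymphocytes carry at rest, were Psmb9 and Psmb8 at the values above and Psmb10 at 9.72 ± 0.15. The proteasome activator genes Psme1 and Psme2 were at 11.06 ± 0.04 and 8.89 ± 0.08, and Pomp, which helps assemble proteasomes, was at 10.32 ± 0.23. Psme3, which encodes another proteasome activator, was at 9.02 ± 0.18 and Tpp2, a cytosolic peptidase, at 8.85 ± 0.08. Thop1, which destroys peptides, was not called at 6.05 ± 0.21. Of the 12 genes called, 7 were highest on array 2, or 58.3% beside 24.9% of all genes above background. Of the 9 loading genes 3 were, Tap2, Tapbp and Erap1, or 33.3%, while Tap1 and Nlrc5 were lowest on array 2. That array was singled out after the values were seen, and the differences between arrays were not tested.

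Class I heavy chain and related genes could be read only in part, since 10 of the 21 listed genes were not analysed here, among them H2-K1 and H2-D1. Of the other 11, 7 were called, or 63.6% beside 46.2% of all named genes. The stricter reading was met by 3, or 27.3% beside 25%, a share near that of all named genes. These 3 were H2-M3, which presents formylated peptides, at 8.95 ± 0.21, H2-T10 at 8.67 ± 0.15 and H2-Q4 at 7.90 ± 0.13. Mr1, which presents vitamin B metabolites, was at 6.73 ± 0.09, H2-Q2 at 6.58 ± 0.15, H2-T24 at 6.56 ± 0.22 and Cd1d1, which presents lipids, at 6.45 ± 0.25. These 4 were called but lay among the organ genes, whose highest value was 7.42. Cd1d1 was not called without array 3, at 6.42, or without array 4, at 6.35. H2-Bl at 5.94 ± 0.06, Hfe at 5.69 ± 0.04, H2-M2 at 4.94 ± 0.14 and H2-Q10, a liver gene, at 4.91 ± 0.09 were not called.

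Genes of ER folding and glycoprotein quality control were called in 18 of 19 cases, and all 18 met the stricter reading. Both shares were 94.7%, beside 46.2% of all named genes called and 25% under the stricter reading. The list median was 8.74. Hsp90b1, which encodes GRP94, was at 11.63 ± 0.04, Sec61b of the translocon at 10.65 ± 0.16 and Hspa5, which encodes BiP, at 10.59 ± 0.09. Sec61a1 was at 9.21 ± 0.11, Ssr1 at 9.14 ± 0.11 and Bcap31, an export receptor, at 9.13 ± 0.21. The isomerase relatives of Pdia3 were at 9.49 ± 0.16 for P4hb, 9.11 ± 0.27 for Pdia4 and 8.74 ± 0.22 for Pdia6. Kdelr3, 1 of the receptors that return ER proteins, was not called at 4.85 ± 0.33.

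Regulators of class I genes were called in 17 of 18 cases, or 94.4% beside 46.2% of all named genes, with a list median of 8.05. The stricter reading was met by 15, or 83.3% beside 25%. Irf2, which binds the IRF element, was at 9.92 ± 0.14 and Irf1, which interferon induces, at 8.94 ± 0.14. Creb1 and Atf1, which bind the CRE, were at 9.55 ± 0.05 and 9.38 ± 0.14, and Rela, an NF-kappaB subunit, at 9.35 ± 0.21. Nfyc, part of the factor that binds CCAAT, was at 8.43 ± 0.26. Suz12 and Eed of the Polycomb repressor, which can silence class I loading genes in tumours, were at 9.44 ± 0.15 and 8.41 ± 0.19. Rfx5, the DNA-binding partner of Nlrc5 and Ciita, was called at 7.01 ± 0.32, among the organ genes. Prdm1, a repressor, was not called at 5.30 ± 0.15.

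Receptors and kinases of the interferon pathway, which raises class I loading genes, were called in 7 of 7 cases, all under the stricter reading too. Of all named genes, 46.2% were called and 25% met the stricter reading. Ifngr1 and Ifngr2 were at 10.61 ± 0.14 and 9.68 ± 0.27, and Ifnar2 and Ifnar1 at 9.82 ± 0.29 and 8.33 ± 0.04. The kinase genes Jak1, Jak2 and Tyk2 were at 11.15 ± 0.05, 9.78 ± 0.28 and 8.61 ± 0.17. Genes listed under turnover of class I at the surface were called in 5 of 7 cases, or 71.4% beside 46.2% of all named genes. The stricter reading was met by 3, or 42.9% beside 25%. This is the name of a list, and whether each product, such as those of Rnf185 and Marchf1, acts on class I was not tested. Wwp2, Susd6 and Tmem127, whose products act together on class I, were at 8.48 ± 0.19, 8.36 ± 0.21 and 8.21 ± 0.25, and met the stricter reading. Rnf185 at 6.78 ± 0.24 and Marchf1 at 6.55 ± 0.33 were called among the organ genes, and Marchf1 was not called without array 3, at 6.41. Marchf9 at 5.71 ± 0.17 and Marchf4 at 5.39 ± 0.06 were not called.

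Paralogs of the loading genes, some of which the lists above also hold, were called in 9 of 13 cases, or 69.2% beside 46.2% of all named genes. The stricter reading was met by 7, or 53.8% beside 25%. Calr3 and Clgn, the testis relatives of Calr and Canx, were not called at 4.721 ± 0.005 and 4.82 ± 0.08. Abcb9, the lysosomal relative of the TAP genes, was not called at 6.04 ± 0.21. Of the relatives of Nlrc5, Nlrc3 was at 8.14 ± 0.11, Ciita at 7.99 ± 0.36, Nod1 at 6.89 ± 0.45 and Nlrx1 at 6.58 ± 0.05, and Nod2 was not called at 6.00 ± 0.10. Npepps, an aminopeptidase of the cytosol related to Erap1, was at 8.27 ± 0.11.

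**Figure D4:**
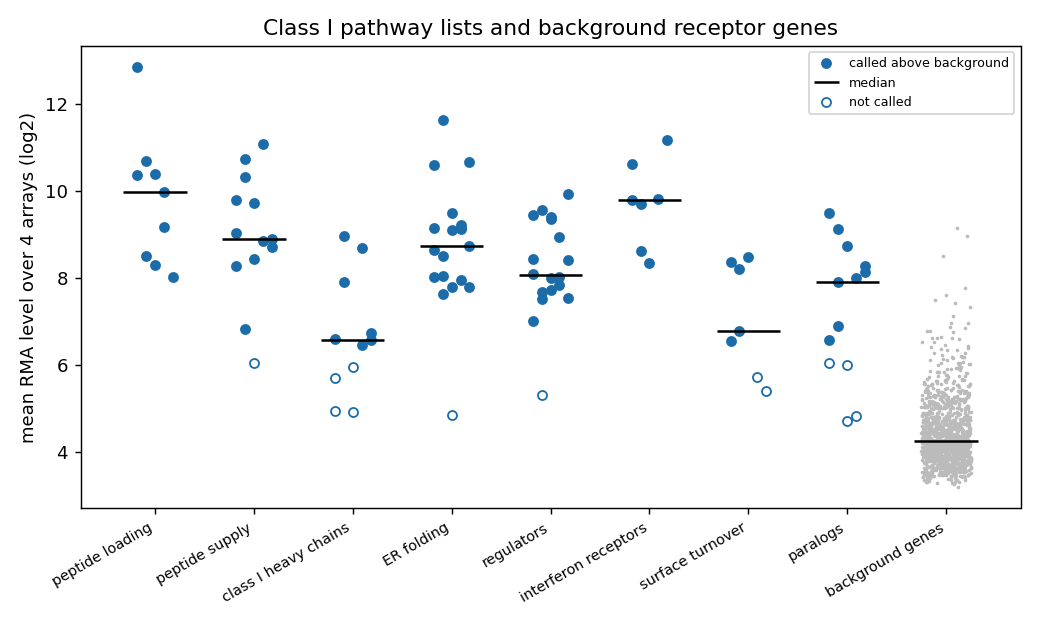
Mean RMA level (log2) of each gene in the peptide loading group and 7 related lists, with the background receptor genes at the right. Filled points were called above background, open points were not, and bars are medians. These run from 9.97 for peptide loading to 6.56 for class I heavy chains and 4.25 for background genes. The heavy chain list shows 11 of 21 listed genes, without H2-K1 and H2-D1, so its median does not stand for the classical heavy chains.

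The genes whose values followed the 3 most variable loading genes most closely were taken from the 9203 genes above background. Likeness was the root mean square difference of values centred on each gene's mean over the 4 arrays, and no correlation is given for so few samples. For Nlrc5 they were Hvcn1, Trit1 and Zfp672, at 0.087, 0.087 and 0.126 log2 units, against a median of 0.593 over all genes searched. For Erap1 they were Ogfrl1, Prdx3 and Sdhaf1, at 0.013, 0.017 and 0.023, against 0.214. For Tap2 they were Uckl1, Icam1 and Fbxo4, at 0.0068, 0.010 and 0.013, against 0.194. Hvcn1 was at 9.43, 7.68, 8.70 and 8.12 on arrays 1 to 4. The search covered 9202 genes for each, and for Nlrc5 it used the probe set of highest mean alone. Genes picked as the nearest of so many lie below the median by selection, so the small differences are a description only.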

How the data were processed

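Expression was measured on 1-colour arrays, 1 for each of 4 samples. The authors deposited 1 log2 value for each probe set and array, from RMA per the submitters' processing notes, a method that corrects background, normalizes between arrays and summarises probes. For its version and any genome build, the sources used here give nothing. The number of arrays limits the precision. The table held 35556 probe sets, of which 21789 carry 1 symbol in GEO's platform annotation, 1621 several (left unnamed) and 12146 are not listed. Entrez identifiers of 21698 matched the RefSeq gene table of GRCm38.p6, used for symbols and gene order.

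Detection, spread and motifs were computed in Python 3.11.15 with pandas 2.3.3, and limma 3.58.1 served as an alternative test across all genes, which uses the spread between samples. No protein sequences were used here. Members and lists were chosen with earlier results of these data known. Named were all 9 members, in each related list up to 8 called genes with the highest mean and up to 4 not called, whole lists of 12 or fewer, and the 3 genes nearest to each of the 3 most variable members. Rfx5, Nlrx1 and any other gene beyond this rule were picked with values in view. The detection and limma tests were tested on simulated data and the motif search on a made-up sequence. Alternatives were another test, background, probe set rule and normalization, a stricter reading and leaving out each array.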

Additional observations from a re-analysis of the deposited data

Results flagged for a closer look

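In none of the 9 loading genes did 1 array stand apart from the other 3 by Dixon's criterion, which was applied to 92 genes and the 19 Nlrc5 probe sets. In 11 of the 92 genes and 1 of the 19 probe sets 1 array did. The criterion is set to pass about 5% of normally distributed values, and RMA values with ties differ from these. The share over all genes above background is not given here, so no excess can be read from the count. The array that stood apart was array 1 for the Nlrc5 probe set 10574163, at 8.84, for Blmh at 8.39, for Syvn1 at 9.34, for Jak1 at 11.07 and for Nlrx1 at 6.65. It was array 2 for Nfya at 8.14 and Rnf185 at 7.13, array 3 for Hfe at 5.63, Hsp90b1 at 11.69, Calr3 at 4.71 and Nod1 at 7.56, and array 4 for Ganab at 8.70. For Ganab, Hfe and Calr3 the other 3 arrays were equal to every digit deposited, which by itself meets the criterion.

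Signal also appeared in probe sets that carry several names and entered no comparison. Both probe sets shared between Tapbp and the ribosomal protein gene Rps3a1 were above the lowest mean called, at 12.46 and 12.43, and which gene they report cannot be told apart. Of 7 probe sets that carry several names of class I heavy chain genes, 6 were above the lowest mean called. Their median over the 7 was 9.12. The highest means, 12.08 and 11.59, were on probe sets that name both H2-K1 and H2-D1.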

How the results depend on the processing

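All 9 loading genes stayed above background under each of the 11 alternatives run, including limma's test and leaving out each array (9 to 9). The count of all named genes was 9203 and moved to 4987 under the stricter reading against the organ genes, and without 1 array it ran from 8835 to 9570. The stricter reading also lowered the count of class I heavy chains from 7 to 3 and of surface turnover genes from 5 to 3. No other count of the 7 related lists moved by more than 1.5 times. Single SDs did move by more than that. Without array 2 the SD fell to 0.04 for Tap1, 0.06 for Tap2 and 0.04 for Tapbp. Without array 1 it fell to 0.118 for Erap1, 0.012 for Calr and 0.426 for Nlrc5, and without array 4 to 0.011 for B2m. The SD of Nlrc5 was 0.174 with the mean of its probe sets, and quantile normalization gave 0.019 for Pdia3. A level between 5.82, the 95th percentile of background, and 7.42 can be missed or wrongly called. No paired analysis was possible because there is 1 group.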
